A study of Mus musculus with 30 samples.

Results

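The comparison was of RNA from cultured mouse extraocular muscle at 48 h with RNA from the same kind of culture at 12 h. Extraocular muscles are the small muscles that turn the eyeball. The arrays were chosen by their titles alone, 48 hour against 12 hour, and number 12 of the 30 arrays in the series, with 3 arrays per time on each of the 2 Affymetrix array types, A and B. The rest of the series sampled the culture at 0, 4 and 24 h. Both groups were labelled only as cultured mouse extraocular muscle, total RNA, with no strain, genotype, age, sex, medium or treatment, and the labels set them apart by time alone. What event started the clock, or whether replicates were separate cultures and A and B arrays of 1 number shared their RNA, is not given in the sources used here. P-values thus measure the spread between these arrays, which may be technical.

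The A type carried 22690 probe sets, of which 13577 were bright enough to test, and the B type 22575, of which 13507 were tested. Across probe sets, which are not independent of each other, an array correlated with its 2 companions of the same time at a mean r between 0.962 and 0.979 on the A type and between 0.852 and 0.891 on the B type. A log2 change carried a median standard error of 0.179 on A and 0.266 on B, so B measured the same change less precisely. The 3' to 5' signal ratio of the Gapdh controls, a measure of RNA integrity, averaged, on the A type, 0.815 ± 0.017 at 48 h against 0.800 ± 0.052 at 12 h (SD, n = 3 each). For 100 tested probe sets present on both types the change at 48 h against 12 h correlated between them with Pearson r 0.776 and Spearman rho 0.635, given as a description across probe sets. In what follows, intensities stand in the order of replicates 1, 2 and 3, a log2 change is that of intensity plus 16 with its standard error (n = 3 arrays per time), and a gene is said to rise or fall at 48 h where its adjusted p was under 0.05.

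Muscle markers were bright at both times. Each marker of this paragraph is given by its brightest A array probe set unless a B array is named. Of 14 of them, 12 were tested and none passed the threshold. The nearest was Myod1 (log2 change -0.70, limma adjusted p = 0.0539). The summed A array intensity of the 14 ran from 57772 to 67436 in the 48 h arrays and from 59687 to 84813 in the 12 h arrays. Embryonic myosin (Myh3) averaged 7188 at 48 h and 7933 at 12 h, while skeletal actin (Acta1) averaged 13902 at 48 h, against 15056 at 12 h. Myf5 and Myf6, a pair of myogenic regulators, were below the filter. The head muscle markers Tbx1, Tcf21 and Msc were also below it on A. A B array probe set of Tcf21 averaged 1022 at 48 h and 790.0 at 12 h (log2 change 0.31 ± 0.24, adjusted p = 0.892). Isl1 was dim, averaging 129 at 48 h, against 116 at 12 h. Myh13 was not analysed here, so the extraocular origin rests on the labels. For other cell types, 2 of 8 fibroblast markers, 7 of 9 smooth muscle and pericyte markers, 1 of 8 endothelial and 3 of 8 macrophage or leukocyte markers were bright enough to test, and none of them passed. The summed fibroblast markers had intensities of 3994 to 4336 at 48 h and 3398 to 4205 at 12 h. Col3a1 made up most of that sum. The smooth muscle and pericyte markers had the largest sum outside muscle, 16207 to 18859 at 48 h and 15499 to 19952 at 12 h. Acta2 made up most of it, averaging 12338 at 48 h and 13784 at 12 h. The endothelial ones summed to 388 to 453 at 48 h and 335 to 565 at 12 h. Macrophage and leukocyte markers summed to 561 to 829 at 48 h and 562 to 968 at 12 h. The Schwann cell, neuron and adipocyte lists had 3, 4 and 1 tested markers, none of which passed in this probe set. A dimmer one of the neuron marker Stmn2 fell (log2 change -0.85 ± 0.20, limma adjusted p = 0.0324).

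Cells short of amino acids, and cells with unfolded protein in the endoplasmic reticulum, share a response. Kinases such as Gcn2, which senses uncharged tRNA, and Perk, in the endoplasmic reticulum membrane, phosphorylate the initiation factor eIF2. General protein synthesis slows while the transcription factor Atf4 is translated more, and Atf4, paired with C/EBP family members, switches on genes for amino acid synthesis, uptake and tRNA charging. Its partner Ddit3 (CHOP) and the pseudokinase Trib3 are among the genes it activates, and Ppp1r15a (Gadd34) restores translation by returning a phosphatase to eIF2. Parts of it have been described in starved muscle and in myoblasts as they differentiate.

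Among the 12 largest rises on the A arrays, 7 were in the list of amino acid stress regulators and targets described below, with Ndrg1 counted as 1 of them. That list held 32 of the 12542 genes tested and was drawn up with earlier results of these data known, so the 7 are a description. The promoters of 3 of those 7 and of 2 other genes of the list that rose are shown. They come from RefSeq on GRCm38.p6, run 5' to 3' along the gene's strand and hold 250 bases before and 50 after the annotated start. Capitals mark a match to TGATGNAAN on either strand, the core of the element that Atf4 and C/EBP factors bind, where N is any base. Trib3 and Ddit3 are shown because they led the list among genes with a promoter in the table, and Chac1, Nupr1 and Atf3 because they hold a match.
Trib3, chr2:152344011-152344310, minus strand: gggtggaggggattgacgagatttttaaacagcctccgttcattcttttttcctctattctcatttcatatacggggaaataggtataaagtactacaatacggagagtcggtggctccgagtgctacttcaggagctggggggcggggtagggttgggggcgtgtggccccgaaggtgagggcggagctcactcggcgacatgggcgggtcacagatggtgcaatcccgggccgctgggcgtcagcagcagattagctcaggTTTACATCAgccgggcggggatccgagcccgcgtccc
Ddit3, chr10:127290543-127290842, plus strand: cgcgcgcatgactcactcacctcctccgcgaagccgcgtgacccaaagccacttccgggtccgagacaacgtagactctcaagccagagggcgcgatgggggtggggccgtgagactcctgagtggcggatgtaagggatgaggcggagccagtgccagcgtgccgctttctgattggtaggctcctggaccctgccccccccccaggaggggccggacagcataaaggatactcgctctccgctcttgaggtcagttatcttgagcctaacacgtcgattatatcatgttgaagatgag
Chac1, chr2:119350992-119351291, plus strand: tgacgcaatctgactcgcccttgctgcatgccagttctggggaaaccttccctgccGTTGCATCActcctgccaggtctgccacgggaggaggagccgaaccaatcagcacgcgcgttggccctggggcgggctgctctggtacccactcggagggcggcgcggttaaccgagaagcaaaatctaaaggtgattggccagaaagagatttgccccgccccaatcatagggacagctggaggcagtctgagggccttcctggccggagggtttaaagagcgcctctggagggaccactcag
Nupr1, chr7:126625421-126625720, minus strand: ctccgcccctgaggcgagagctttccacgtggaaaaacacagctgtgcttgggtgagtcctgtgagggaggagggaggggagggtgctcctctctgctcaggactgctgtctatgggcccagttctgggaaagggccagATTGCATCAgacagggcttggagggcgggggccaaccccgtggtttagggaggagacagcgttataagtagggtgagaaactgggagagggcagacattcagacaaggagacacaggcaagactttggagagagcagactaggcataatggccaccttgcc
Atf3, chr1:191183284-191183583, minus strand: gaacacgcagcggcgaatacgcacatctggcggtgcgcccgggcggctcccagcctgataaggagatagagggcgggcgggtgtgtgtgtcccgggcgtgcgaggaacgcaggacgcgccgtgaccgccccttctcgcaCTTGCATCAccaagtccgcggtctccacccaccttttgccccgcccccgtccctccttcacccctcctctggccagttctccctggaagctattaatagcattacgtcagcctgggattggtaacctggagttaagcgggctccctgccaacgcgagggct

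Every match shown lies on the strand opposite the gene, 14 bases after the start in Trib3 and with its first base at -194 in Chac1 and at -111 in both Nupr1 and Atf3. Of the 22 genes of the list that rose, described below, 19 have a promoter in the table, with 24 entries in all. Of these entries 5 hold a match, the fifth being 1 of the 2 Vldlr entries, which is 20.8%, against 3.95% of all 32851 promoters of the same length. Counted by gene, 5 of the 19 hold a match in at least 1 entry, and so do 3 of the 9 other tested members with a promoter. These counts are too small to show whether a match set the members that rose apart from the others. Of the 32 tested members 31 had a positive change. The list was chosen to hold targets of this response, so its share of matches beside that of all promoters is a description. A match is a description of letters, and the absence of one in Ddit3 says only that these letters are not in this window.

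On the A arrays 344 of 13577 probe sets differed between 48 h and 12 h (limma, adjusted p under 0.05), which is 2.53%. Of these, 243 were higher at 48 h (1.79%) and 101 lower (0.744%), and 94 of the rises but 27 of the falls exceeded a log2 change of 1. After median scaling the split was 164 higher and 112 lower. An unadjusted p under 0.05 was reached by 2121. On the B arrays 18 of 13507 differed (0.133%), 14 higher (0.104%) and 4 lower (0.0296%), with 948 at an unadjusted p under 0.05. All 344 A and all 18 B calls had 48 h and 12 h values free of overlap. So had 19.9% of all tested probe sets on A and 13% on B. A lack of overlap, where given below for a called gene, thus adds nothing to its call. When each gene was represented by its brightest probe set, 171 of 12542 genes rose (1.36%) and 67 fell (0.534%), or 1.9% in either direction, and these shares are the background for the counts of list members below. Leaving out 48 h replicate 3 brought the number of A array calls to 154, leaving out 12 h replicate 1 to 194 and leaving out 48 h replicate 1 to 216. The B calls numbered 7 with 12 h replicate 1 left out and 8 with 48 h replicate 1 or replicate 3 left out. In bulk RNA, fewer cells of a type and less RNA per cell cannot be told apart.

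**Figure D1:**
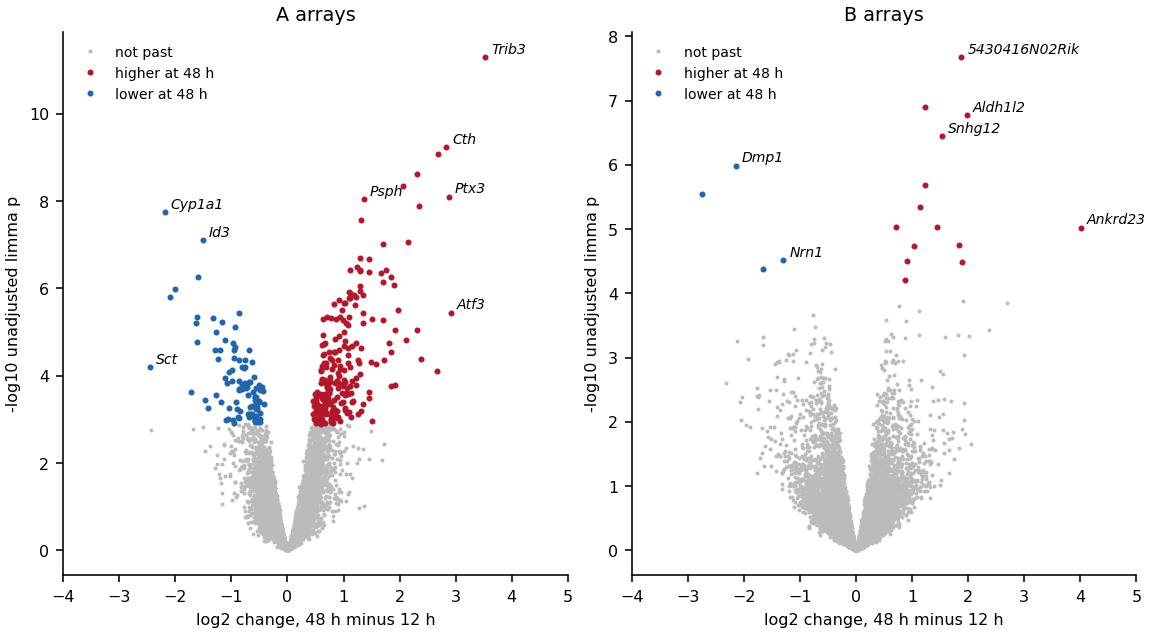
Log2 change at 48 h minus 12 h (x) against -log10 of the unadjusted limma p (y), 1 point per tested probe set, A arrays on the left and B arrays on the right. Red points are the 243 A and 14 B probe sets higher at 48 h, blue points the 101 and 4 that were lower, and grey points did not pass, with Trib3 the farthest up on the A arrays.

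The regulators of the amino acid response rose together at 48 h. Of 32 tested members of the list of amino acid stress regulators and targets, 22 rose and none fell, with a median log2 change of 1.11 against 0.0017 over all genes. The list was drawn up with earlier results of these data known, so its count is a description and not independent evidence of its direction. Trib3, which binds Akt and dampens Atf4 itself, had intensities of 1666, 1964 and 2011 at 48 h and 131, 163 and 152.5 at 12 h (log2 change 3.52 ± 0.21, limma adjusted p = 6.89e-08). The 3 arrays of each time lay close together and far from those of the other time, and the gene's other tested probe set also rose (log2 change 2.11). Ddit3, the CHOP transcription factor, had 1672, 1306 and 1655.5 at 48 h, against 216, 229 and 234 at 12 h (log2 change 2.68 ± 0.22, limma adjusted p = 3.79e-06). The groups did not overlap, but its dimmer probe set, with a log2 change of 1.36, did not pass. Atf3, another factor of the same basic zipper class, had 539.7, 434.5 and 763 at 48 h and 38.3, 116.5 and 47 at 12 h (log2 change 2.92 ± 0.43, limma adjusted p = 0.00107), with no overlap and 1 of the 12 h arrays above the other two. Atf4 itself, which is controlled mainly at translation, rose less, with 6791, 6658 and 5990.1 at 48 h and 4158, 4770.1 and 3366 at 12 h (log2 change 0.67 ± 0.14, limma adjusted p = 0.012). Atf5, a relative of Atf4 with the same mode of control, had 2335, 2759 and 2617 at 48 h and 1291.5, 1036 and 831 at 12 h (log2 change 1.29 ± 0.15, limma adjusted p = 0.000193).

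Partners and feedback genes of the response moved the same way. Cebpb, a C/EBP factor, had 1759.7, 2232 and 2149 at 48 h and 855, 776 and 817 at 12 h (log2 change 1.30 ± 0.14, limma adjusted p = 3.7e-05), and Cebpg, a partner without an activation domain, rose by a log2 of 0.79 ± 0.14 (adjusted p = 0.0056). Nupr1, a small stress-induced chromatin protein, had 1430.4, 1301 and 1579 at 48 h and 511, 511.5 and 299 at 12 h (log2 change 1.71 ± 0.22, limma adjusted p = 0.000397). The groups did not overlap for any of the 3, as for every called probe set. Ppp1r15a, the phosphatase subunit that reverses eIF2 phosphorylation, had 1693, 1392 and 2049.6 at 48 h, against 329, 442 and 221 at 12 h (log2 change 2.35 ± 0.23, limma adjusted p = 2.17e-05). Sesn2, a leucine sensor that restrains the growth kinase mTORC1, had 859.7, 806 and 874 at 48 h and 174, 118 and 276 at 12 h (log2 change 2.14 ± 0.24, limma adjusted p = 9.67e-05), and both of its probe sets rose. Chac1, which degrades glutathione, had 1814, 1622.5 and 1828 at 48 h and 612, 635 and 630.4 at 12 h (log2 change 1.46 ± 0.18, limma adjusted p = 0.000194), with 3 nearly equal arrays at 12 h.

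**Figure D2:**
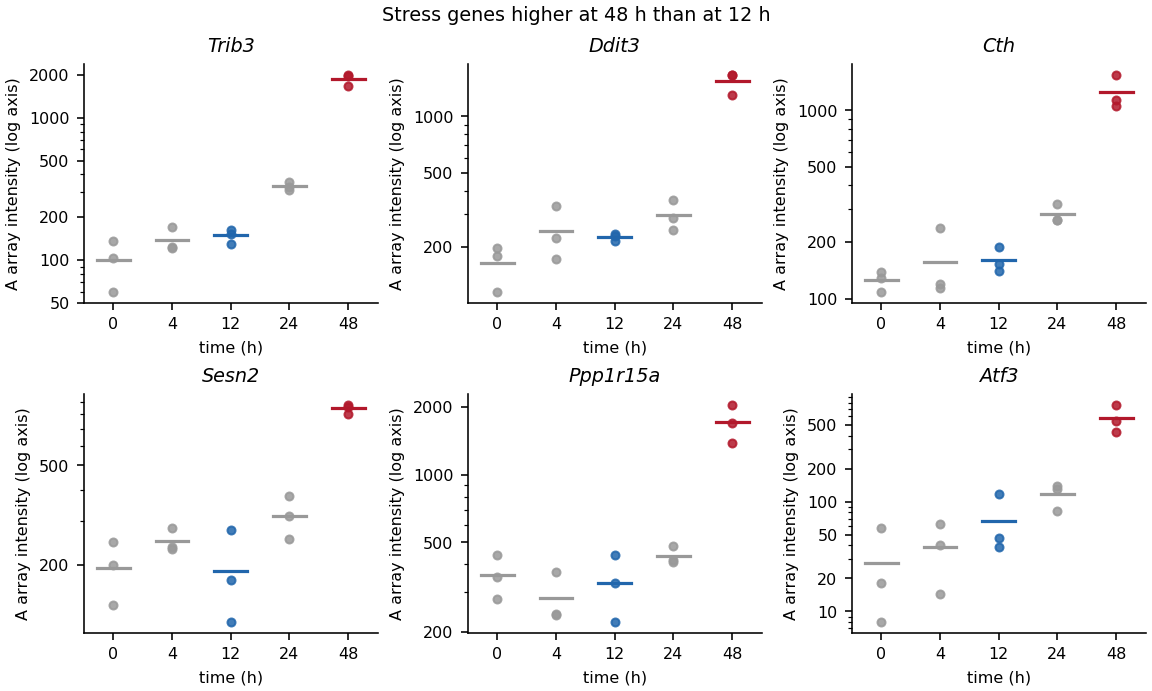
A array intensity on a log axis (y) of 6 genes at each time (x, hours), with 1 point per array and a bar at the mean of 3, red for 48 h, blue for 12 h and grey for the times outside the comparison. In all 6 the 3 arrays at 48 h lie above every other array shown, and the 24 h means lie between the 12 h and 48 h means.

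Enzymes that make serine, glycine, cysteine and proline rose, although not all of them. Cth, which makes cysteine from cystathionine, had 1055.5, 1139 and 1548.5 at 48 h and 141, 152 and 188.5 at 12 h (log2 change 2.83 ± 0.23, limma adjusted p = 3.79e-06), and the groups did not overlap. Psph, the last enzyme of serine synthesis, had 2517.5, 2623 and 2737 at 48 h and 979, 974 and 1073 at 12 h (log2 change 1.37 ± 0.13, limma adjusted p = 1.75e-05), with even arrays at both times. Psat1, the step before it, rose by a log2 of 0.50 ± 0.13 (adjusted p = 0.0438), while Phgdh, the first step, had a log2 change of 0.36 ± 0.12 (adjusted p = 0.142). The mitochondrial folate enzyme Mthfd2 rose by a log2 of 0.76 ± 0.14 (adjusted p = 0.00543) and Aldh18a1, the first enzyme of proline synthesis, by 0.91 ± 0.16 (adjusted p = 0.00393) in a probe set with possible cross-hybridization. Shmt2, the mitochondrial serine hydroxymethyltransferase, did not pass in its brightest probe set (log2 change 0.71 ± 0.21, adjusted p = 0.0933) but did in another (log2 change 1.06 ± 0.22, adjusted p = 0.0149). Its remaining dim probe sets did not pass either (log2 changes -0.58 and 0.68). Asns, asparagine synthetase, had intensities of 6632, 6912 and 6266 at 48 h and 4492, 5428 and 3818.5 at 12 h (log2 change 0.54 ± 0.20, adjusted p = 0.174), and did not pass. Cbs, which makes the cystathionine that Cth cleaves, had a log2 change of -0.15 ± 0.25 (adjusted p = 0.842).

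Among carriers, Slc3a2 and Slc7a5 form the heterodimer that brings leucine and other large neutral amino acids into the cell. Slc3a2 had 6406, 6750.0 and 6135 at 48 h and 2508, 3517 and 2328 at 12 h (log2 change 1.23 ± 0.17, limma adjusted p = 0.000603). Slc7a5 had 3783, 4140.3 and 4657.5 at 48 h and 2191, 2064 and 1535 at 12 h (log2 change 1.12 ± 0.15, limma adjusted p = 0.000557). Both subunits of the carrier were higher in every 48 h array than in any 12 h array. The glycine carrier Slc6a9 rose by a log2 of 1.10 ± 0.15 (adjusted p = 0.000557). Slc7a1, Slc7a3 and Slc38a2, which carry cationic and small neutral amino acids, had log2 changes of 0.28, 0.63 and 0.15 and did not pass. The xCT subunit Slc7a11 was below the filter. Among the other targets, Vldlr, a lipoprotein receptor, rose by a log2 of 1.67 ± 0.21 (adjusted p = 0.000278), the secreted glycoprotein Stc2 by 1.07 ± 0.20 (adjusted p = 0.00623), and Ndrg1, a gene of differentiation and hypoxia, by 1.91 ± 0.25 (adjusted p = 0.000443). Fgf21, a secreted metabolic hormone, had a log2 change of 1.27 ± 0.74 (adjusted p = 0.448), Vegfa of 0.67 ± 0.25 (adjusted p = 0.186) in its brightest probe set and Herpud1, an endoplasmic reticulum degradation factor, of 0.77 ± 0.33 (adjusted p = 0.266), and none of these passed. Another Vegfa probe set did (log2 change 1.01 ± 0.14, adjusted p = 0.000739).

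Cytosolic tRNA synthetases, which load amino acids onto tRNA, rose by smaller steps. Of 19 tested, 11 rose and none fell, with a median log2 change of 0.59. Wars, for tryptophan, had 1953, 1904 and 1916 at 48 h and 873, 899 and 869.9 at 12 h (log2 change 1.11 ± 0.14, limma adjusted p = 0.000269), and 3 of its 4 other probe sets also rose. Its arrays within a time were nearly equal. Sars, for serine, had 4343, 4395 and 3836 at 48 h and 2384, 2448 and 2213 at 12 h (log2 change 0.83 ± 0.12, limma adjusted p = 0.000776). On the log2 scale Gars, for glycine, rose by 0.85, Tars, for threonine, by 0.86, Lars, for leucine, by 0.71, Nars, for asparagine, by 0.66, and Rars, for arginine, by 0.64. Cars, Aars, Eprs and Farsb, for cysteine, alanine, glutamate with proline, and phenylalanine, rose by log2 changes of 0.64, 0.59, 0.55 and 0.51. Yars, for tyrosine, had a change of the same size that missed the threshold (log2 change 0.59 ± 0.17, adjusted p = 0.0741). Hars, Vars, Qars, Farsa, Mars1, Kars and Iars had log2 changes between -0.22 and 0.26 and did not pass.

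**Figure D3:**
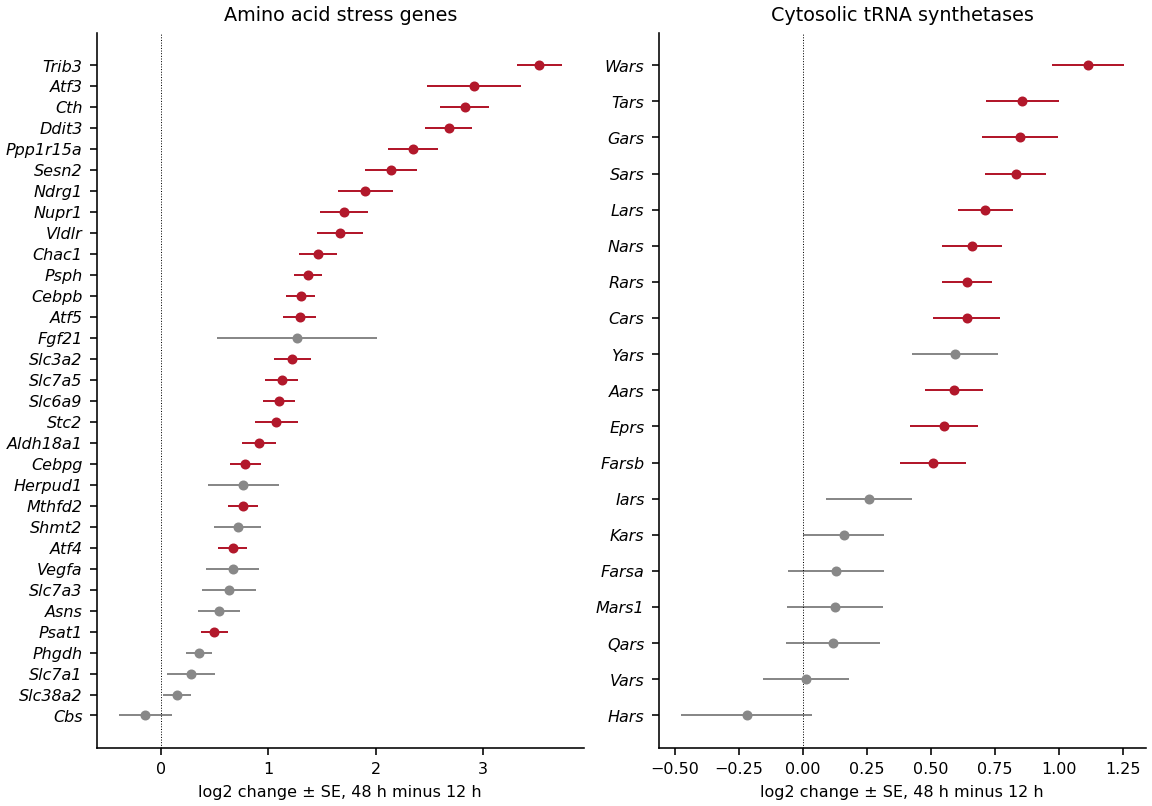
Log2 change at 48 h minus 12 h with its standard error (x) of each tested gene (y) of the amino acid stress list on the left and of the cytosolic tRNA synthetases on the right. Red marks the 22 of 32 and 11 of 19 genes that rose, grey the genes that did not pass, and no gene of either list fell.

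What set off the rises of the stress genes above was not tested. The chaperones of the endoplasmic reticulum formed a separate list. Of 20 tested, none rose and 2 fell, with a median log2 change of -0.19. Creld2 had 489, 599.8 and 409 at 48 h and 844, 741 and 809 at 12 h (log2 change -0.67 ± 0.14, limma adjusted p = 0.0124), and Calr, the calcium-binding chaperone calreticulin, had 4490.5, 3832 and 4486 at 48 h and 6405, 5947 and 5769.5 at 12 h (log2 change -0.50 ± 0.10, limma adjusted p = 0.0133). Neither of the 2 passed without 12 h replicate 1, and 1 of them did if 48 h replicate 2 or replicate 3 was left out. The 2 other Calr probe sets did not pass (log2 changes -0.38 and -0.34). The largest increase in the list was a log2 change of 0.22. Of 18 other heat shock proteins, Hspa9, the mitochondrial Hsp70, rose by a log2 of 0.53 ± 0.12 (adjusted p = 0.027), a call lost without 12 h replicate 1 or 2 or any 48 h array. Its 3 other probe sets did not pass (log2 changes 0.20 to 0.55). Bag3, an Hsp70 co-chaperone, had a log2 change of -0.58 ± 0.15 (adjusted p = 0.0452), lost in 17 of 25 other settings and runs. None of 7 small heat shock proteins passed, the list's change running from -0.45 to 0.69.

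Of 13 tested p53 targets and p53 itself, 4 rose and none fell. Plk2, a polo-like kinase, had 2981, 3281 and 3035 at 48 h and 1922, 2177 and 1931 at 12 h (log2 change 0.62 ± 0.11, limma adjusted p = 0.00327), though its other probe set had a change of -0.11. Zmat3, an RNA-binding p53 target, had 1202, 1346 and 951 at 48 h and 596.5, 579 and 780.0 at 12 h (log2 change 0.82 ± 0.15, limma adjusted p = 0.00407). Aen, an apoptotic nuclease, rose by a log2 of 0.68 ± 0.13 (adjusted p = 0.00707), and Bbc3, the death protein Puma, by 0.64 ± 0.16 (adjusted p = 0.0463), of which the last was lost in 17 of 25 other settings and runs. Among 13 cell cycle inhibitors and Gadd45 genes none passed. Gadd45a had 1943, 1449 and 2407 at 48 h and 1176, 843 and 763 at 12 h, groups that did not overlap, but the test did not call it (log2 change 1.04 ± 0.32, adjusted p = 0.102).

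Of the 25 immediate early genes tested, which in other settings respond to growth factors within minutes, 6 rose and 1 fell. Klf4 had 1414, 863 and 1649 at 48 h and 371.5, 324 and 396 at 12 h (log2 change 1.76 ± 0.22, limma adjusted p = 0.000269). Myc had 1276, 1113 and 1835 at 48 h and 738, 551 and 742 at 12 h (log2 change 1.02 ± 0.22, limma adjusted p = 0.0185), Klf6 rose by a log2 of 0.75 ± 0.16 (adjusted p = 0.0176), Klf2 by 0.88 ± 0.21 (adjusted p = 0.0326) and Ptgs2, the inducible prostaglandin synthase, by 0.89 ± 0.22 (adjusted p = 0.0397). With Atf3 these make the 6. Of them 2 passed under median scaling or without 48 h replicate 3, and 3 if 12 h replicate 2 or replicate 3 was left out. The 4 other Klf6 probe sets did not pass (log2 changes 0.19 to 0.69). Egr2, a zinc finger factor, fell. Its brightest probe set had 156.5, 130.5 and 190.3 at 48 h and 497, 377 and 231.5 at 12 h (log2 change -1.09 ± 0.22, limma adjusted p = 0.0126), and the other passed as well, with -1.28. The brightest did not pass without 12 h replicate 1 or 48 h replicate 2.

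Several secreted and matrix genes were among the rises. Ptx3, a soluble pattern recognition protein made in inflammation, had 1554, 971 and 2796 at 48 h and 204, 190.1 and 225 at 12 h (log2 change 2.88 ± 0.27, limma adjusted p = 1.75e-05), with the 48 h arrays spread more than the 12 h arrays. Htra1, a secreted serine protease, had 410.5, 186 and 476.5 at 48 h and 23.9, 16.8 and 110.0 at 12 h (log2 change 2.67 ± 0.52, limma adjusted p = 0.00823) in a probe set with possible cross-hybridization, and its other probe set rose by 2.32. The first did not pass without 48 h replicate 3. The chemokine Ccl2 had 150.0, 200.2 and 298 at 48 h and 45.3, 83.7 and 72.5 at 12 h (log2 change 1.46 ± 0.31, limma adjusted p = 0.0169), so that 2 of 12 tested cytokines and secreted regulators rose, or 1 without 12 h replicate 1 or 48 h replicate 3. One fell, the membrane-bound chemokine Cx3cl1, with 586, 577 and 636 at 48 h and 1053.5, 1151 and 933 at 12 h (log2 change -0.78 ± 0.15, limma adjusted p = 0.00736). Its other probe set did not pass (log2 change -0.71). Of 21 matrix genes other than collagens 4 rose, with a median over the list of 0.19. They were the elastic fibre protein Fbln5, with 335, 349 and 446 at 48 h and 89.7, 90.5 and 98.7 at 12 h (log2 change 1.84 ± 0.33, limma adjusted p = 0.00416), periostin (Postn), with 209, 192.5 and 482 at 48 h and 55.6, 74.5 and 50.3 at 12 h (log2 change 1.92 ± 0.40, limma adjusted p = 0.0134), tenascin C (Tnc), by 0.88 ± 0.19 (adjusted p = 0.02), and the lysyl oxidase relative Loxl1, by 0.54 ± 0.13 (adjusted p = 0.039). Of the list 1 gene passed with 12 h replicate 1 or 48 h replicate 3 left out and 2 with 12 h replicate 3 left out, and the Loxl1 call was lost in 14 of 25 other settings and runs.

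Of 17 collagen chains tested 3 rose and none fell. Col6a3 had 645, 778 and 841 at 48 h and 288, 487 and 342 at 12 h (log2 change 1.01 ± 0.20, limma adjusted p = 0.00788), Col5a1 rose by a log2 of 0.88 ± 0.18 (adjusted p = 0.0121) and Col8a1 by 0.80 ± 0.20 (adjusted p = 0.0392). None of the 3 passed without 48 h replicate 3, and 1 did without 12 h replicate 1. The 2 other Col5a1 probe sets (log2 changes 0.90 and 0.92) and the other Col8a1 probe set (0.43) did not pass. Col3a1, the brightest fibroblast marker, had a log2 change of 0.12 ± 0.12 (adjusted p = 0.701). Col1a2, also tested, averaged 129.6 at 48 h and 170.9 at 12 h (log2 change -0.32, limma adjusted p = 0.612). Of the fibroblast markers below the A array filter, Col1a1 averaged 169.8 at 48 h and 56.1 at 12 h, and Pdgfra 58.9 at 48 h and 24 at 12 h. Lum averaged 89.7 at 48 h and 60.4 at 12 h, and Dcn 11.2 at 48 h and 36.9 at 12 h. Thy1 averaged 62.7 at 48 h and 74.1 at 12 h, and Fap 38.1 at 48 h and 35.7 at 12 h. On the B arrays Dcn averaged 321 at 48 h and 163 at 12 h (log2 change 1.11 ± 0.52, adjusted p = 0.712). Pdgfra averaged 198 at 48 h and 138 at 12 h (log2 change 0.57 ± 0.84, adjusted p = 0.959). Neither passed. The part of fibroblast RNA in the rises of collagens and other matrix genes was not tested. Adamts1, a secreted metalloprotease, was the 1 of 12 tested matrix proteases and inhibitors that rose (log2 change 1.03 ± 0.24, adjusted p = 0.0291), and it did not pass without 12 h replicate 1 or 2 or 48 h replicate 3.

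The other rises on the A arrays given here include Ndrg1 and Ccnd2, which were in lists, and Car6, Nnmt and Msln, which were in none. Car6, a secreted carbonic anhydrase, had 275, 223 and 414 at 48 h and 7.8, 91.8 and 67.6 at 12 h (log2 change 2.38 ± 0.43, limma adjusted p = 0.00543), and was dim at 12 h. Nnmt, which methylates nicotinamide, had 415, 581 and 529.7 at 48 h and 105, 132 and 117 at 12 h (log2 change 1.96 ± 0.29, limma adjusted p = 0.000985). Mesothelin (Msln), a cell surface protein, had 389.7, 355 and 312.5 at 48 h and 56.8, 59.7 and 149 at 12 h (log2 change 1.92 ± 0.31, limma adjusted p = 0.0019). At 12 h Atf3, Htra1, Msln, Fbln5, Postn and Ccl2, like Car6, averaged under the A array filter intensity of 101. So did the Ndrg1 probe set given next. Ndrg1, counted above through its brightest probe set, was named here by another, with 416, 393 and 757 at 48 h and 98.6, 45.9 and 140.3 at 12 h (log2 change 2.31 ± 0.37, limma adjusted p = 0.0019), and all 5 of its tested probe sets rose. It was the only 1 of 23 tested genes of the hypoxia and glycolysis list to rise in its brightest probe set, or 1 of 2 if 0 h replicate 2 or replicate 3 was left out, and none of them fell. The count covers that list and those probe sets alone. Vegfa rose in 1 dimmer probe set, and Ero1a rose as well, as given elsewhere. Ccnd2, cyclin D2, had 1126, 964 and 1188 at 48 h and 306, 479 and 499 at 12 h (log2 change 1.35 ± 0.21, limma adjusted p = 0.00138). It was the 1 that passed among 5 D-type cyclins and kinases, and 2 of its 4 other probe sets rose.

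The falls were fewer and included the inhibitors of differentiation. Id proteins bind E proteins and keep them from pairing with MyoD, and their genes are direct targets of bone morphogenetic protein (BMP) signals. Id3 had 968.5, 1053 and 618 at 48 h and 2359.7, 2365.5 and 2734 at 12 h (log2 change -1.51 ± 0.17, limma adjusted p = 9.67e-05). Id2 had 394, 509.6 and 185 at 48 h and 1048, 926 and 1262 at 12 h (log2 change -1.63 ± 0.25, limma adjusted p = 0.00138), with the 48 h arrays spread more than the 12 h arrays, and 1 of its 2 other probe sets fell. Id1 had 1516, 1511 and 989.9 at 48 h and 2138, 2514 and 1804 at 12 h (log2 change -0.69 ± 0.17, limma adjusted p = 0.0354). Atoh8, a basic helix-loop-helix factor that BMP also induces, had 13.9, 38.3 and 20.4 at 48 h and 176, 87.2 and 179 at 12 h (log2 change -2.01 ± 0.27, limma adjusted p = 0.000493), and was dim at 48 h. With Tgif1, a corepressor that rose by a log2 of 0.53 ± 0.12 (adjusted p = 0.0249), these are the genes that passed among 14 tested Id, BMP and TGF-beta targets. Of them 4 were lower and 1 higher, and the list's median log2 change was -0.27. Tgif1 did not pass without 12 h replicate 1 or 2 or 48 h replicate 1 or 3. For the ligands and antagonists of the family none of 13 passed. Inhba, the activin chain, had 169, 89.5 and 232 at 48 h and 22, 27.9 and 113 at 12 h, overlapping groups (log2 change 1.50 ± 0.41, adjusted p = 0.0602), and Bmp4 had 280.3, 207 and 317 at 48 h and 82.5, 156 and 206.5 at 12 h (log2 change 0.85 ± 0.30, adjusted p = 0.168), which did not overlap.

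**Figure D4:**
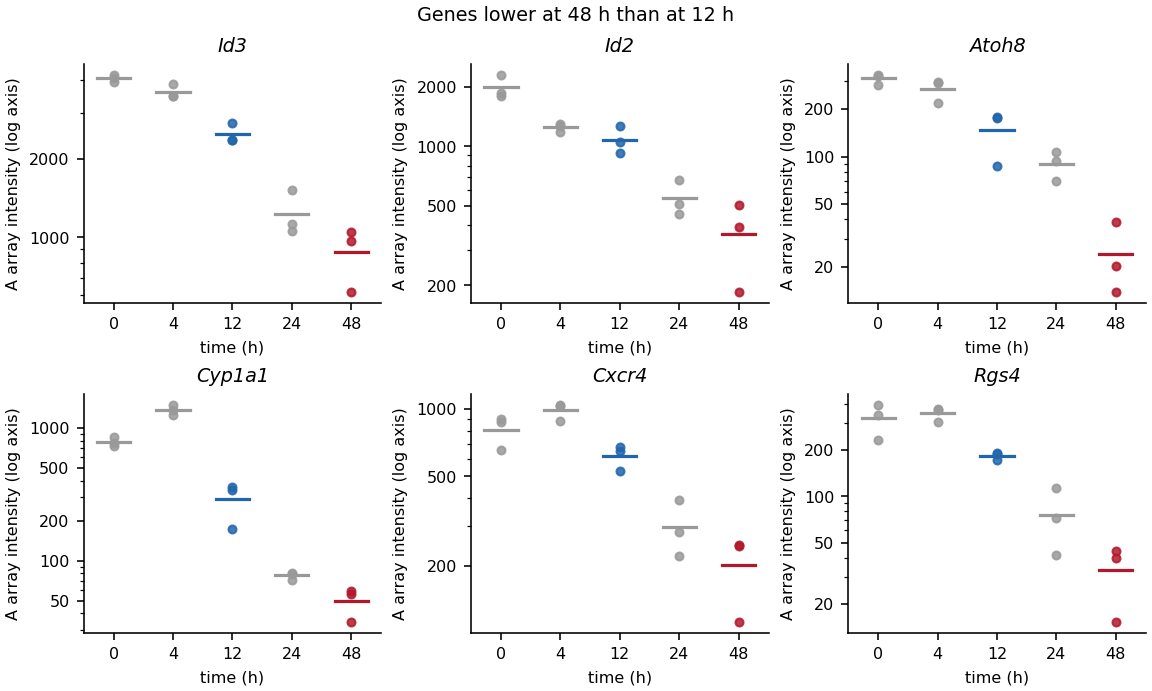
A array intensity on a log axis (y) of 6 genes at each time (x, hours), with 1 point per array and a bar at the mean of 3, red for 48 h, blue for 12 h and grey for the times outside the comparison. The 48 h arrays lie below all 12 h arrays in each panel, and the 24 h means lie between the means at 48 h and 12 h.

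Genes that respond to the aryl hydrocarbon receptor and to Nrf2, sensors of planar ligands and of electrophiles, gave a few falls. Cyp1a1, the classic receptor target, had 55.8, 58.9 and 34.4 at 48 h and 362, 342.5 and 174 at 12 h (log2 change -2.19 ± 0.22, limma adjusted p = 2.74e-05). Nqo1, a quinone reductase that both pathways induce, had 860.4, 779.6 and 884 at 48 h and 1333, 1447.5 and 1212 at 12 h (log2 change -0.65 ± 0.16, limma adjusted p = 0.0354). These were 2 of 8 tested genes of the receptor's list, where Aldh3a1 had a log2 change of -0.88 ± 0.25 (adjusted p = 0.0811) and Cyp1b1 of -0.10. Of 20 tested Nrf2 targets 3 fell and none rose, Nqo1 with the glutathione transferases Gsta4 and Gstm1. Gsta4 had 271, 338 and 526 at 48 h and 1075, 779 and 770.0 at 12 h (log2 change -1.21 ± 0.21, limma adjusted p = 0.00393), and Gstm1, whose probe set can match its paralogs, had 849.8, 935 and 881 at 48 h and 1482, 1522 and 1202 at 12 h (log2 change -0.64 ± 0.16, limma adjusted p = 0.0354). The median of that list was -0.01, and 10 of the 20 changes were positive. Without 12 h replicate 1 or 2 or any 48 h array Gsta4 alone of the 3 passed, and Cyp1a1 alone of the receptor's list, as also without 4 h replicate 1.

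Other falls were in signalling and secreted genes. Sct, the hormone secretin, had 28.7, 38.5 and 31.5 at 48 h and 306, 410.3 and 123 at 12 h (log2 change -2.46 ± 0.47, limma adjusted p = 0.00707), with the 12 h arrays spread more than the 48 h arrays. Rgs4, which shortens G-protein signals, had 15.2, 44.2 and 39.5 at 48 h and 189, 191 and 173 at 12 h (log2 change -2.09 ± 0.29, limma adjusted p = 0.000603) in 1 probe set, while its brighter one did not pass (-1.19, adjusted p = 0.248). Sct and this Rgs4 probe set averaged 32.9 and 33.0 at 48 h, under the A array filter intensity of 101. Cyp1a1, Atoh8, Hip1r and the dimmer Egr2 probe set also averaged under 101 at 48 h. Cxcr4, the receptor for the chemokine Cxcl12 that guides muscle precursors, had 248, 245 and 113 at 48 h and 529, 651 and 675 at 12 h (log2 change -1.61 ± 0.24, limma adjusted p = 0.00123). Islr, a secreted leucine-rich protein, had 1626, 1761 and 1244 at 48 h and 3821, 4159.8 and 3575 at 12 h (log2 change -1.32 ± 0.20, limma adjusted p = 0.00123), and Tafa5, a secreted chemokine-like protein, had 134, 216 and 50.4 at 48 h and 295, 347 and 418 at 12 h (log2 change -1.47 ± 0.33, limma adjusted p = 0.0219). The Tafa5 call was lost without 12 h replicate 2 or 3 or 48 h replicate 3. Hip1r, an endocytic adaptor, had 53.2, 28.8 and 17.2 at 48 h and 105, 118 and 169 at 12 h (log2 change -1.62 ± 0.27, limma adjusted p = 0.00305), but its 2 other probe sets had changes of -0.14 and -0.07. Ndufa7, a complex I subunit, was much the same, with 218.5, 523 and 231 at 48 h and 687.5, 786 and 800.4 at 12 h (log2 change -1.29 ± 0.23, limma adjusted p = 0.00393) in a probe set with possible cross-hybridization and changes of -0.32 to -0.06 in 4 others that did not pass. Of 20 feedback inhibitors of receptor signalling Spry2 fell (log2 change -0.59 ± 0.13, adjusted p = 0.02) and Lrig1 rose (log2 change 0.79 ± 0.19, adjusted p = 0.0328). Spry2 lost its call with 12 h replicate 1 or 2 or 48 h replicate 1 or 3 left out, Lrig1 with 12 h replicate 1 or 3 or any 48 h array left out. The 2 other Lrig1 probe sets did not pass (log2 changes 0.51 and 0.70).

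Few genes of fuel use and the respiratory chain passed the threshold. Of 18 tested genes of fatty acid uptake and oxidation 3 fell and none rose. Pdk4, the kinase that spares pyruvate, had 169, 177 and 206 at 48 h and 405, 302 and 588 at 12 h (log2 change -1.12 ± 0.19, limma adjusted p = 0.00283), Acadm, the medium-chain dehydrogenase, had 1100.4, 740.2 and 932 at 48 h and 1445, 1297 and 1918 at 12 h (log2 change -0.74 ± 0.16, limma adjusted p = 0.0146), and Hadh had a log2 change of -0.49 ± 0.11 (adjusted p = 0.0159). Without 48 h replicate 3 only Pdk4 of the 3 passed. The other Hadh probe set did not pass (log2 change -0.24). Pdk4 was also the 1 of 19 tested FOXO, atrophy and glucocorticoid responsive genes that passed. All 20 tested subunits of the respiratory chain had a negative change, with a median log2 change of -0.28, but 1 passed, Ndufb8 (log2 change -0.52 ± 0.13, adjusted p = 0.0441), and its call was lost in 17 of 25 other settings and runs. The other Ndufb8 probe set did not pass (log2 change -0.46). Of the muscle forms of energy enzymes Cox6a2, the heart and muscle subunit of cytochrome oxidase, rose, with 2197, 2838.5 and 2062 at 48 h and 1235.5, 1395 and 657 at 12 h (log2 change 1.15 ± 0.23, limma adjusted p = 0.0121), a call lost without 48 h replicate 2. Its other probe set did not pass (log2 change 0.99). None of 24 sterol and fatty acid synthesis genes passed.

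In the contractile apparatus 1 gene passed the threshold. On the B arrays Ankrd23, a muscle ankyrin repeat protein that binds titin in the stretch-sensing part of the sarcomere, had 2152, 1919 and 1703.5 at 48 h and 143, 175 and 41.1 at 12 h (log2 change 4.01 ± 0.62, limma adjusted p = 0.0117), the largest rise on either type. It was the 1 of 28 tested genes of sarcomeric actins, Z-disc and M-band that passed, and its call was lost without 12 h replicate 1 or 3 or any 48 h array of the B type. With A array 24 h replicate 3 left out 2 genes of that list passed. None of 5 myosin heavy chains, 4 myosin light chain genes, 13 troponins and tropomyosins, 19 genes of excitation-contraction coupling, 9 of the acetylcholine receptor and junction or 8 of the dystrophin complex passed. Slow myosin (Myh7) had 1030.4, 1130.4 and 786 at 48 h and 508, 734 and 502 at 12 h (log2 change 0.75 ± 0.22, adjusted p = 0.0906), groups that did not overlap. Perinatal myosin (Myh8) had 1521, 1376 and 1723 at 48 h and 1364, 856 and 653 at 12 h (log2 change 0.74 ± 0.26, adjusted p = 0.157), fast troponin I (Tnni2) 6622, 8243 and 5716 at 48 h and 4390.1, 5173 and 2852 at 12 h (log2 change 0.75 ± 0.23, adjusted p = 0.102), and calsequestrin (Casq1) 954.5, 1024.5 and 702 at 48 h and 236, 376.5 and 658 at 12 h (log2 change 1.15 ± 0.46, adjusted p = 0.225). Myod1, the master regulator of the lineage, had 4597.5, 4948 and 3693 at 48 h and 7411, 7539.7 and 6445 at 12 h without overlap, and just missed the threshold (log2 change -0.70 ± 0.18, adjusted p = 0.0539), with the other probe set at 0.46. None of the 13 tested myogenic regulators passed, and Myog had a log2 change of -0.37 ± 0.24 (adjusted p = 0.487).

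No gene of the DNA replication and mitosis lists passed. Of 39 tested DNA replication genes 4 had a positive change, the median log2 change was -0.34, and the 2 with the largest statistic were Rrm1, a subunit of ribonucleotide reductase, with 2909, 3267.5 and 2613 at 48 h and 3798, 3617 and 4031 at 12 h (log2 change -0.38 ± 0.10, adjusted p = 0.053), and Pcna, the polymerase clamp, with 7216, 7273 and 6568 at 48 h and 8132, 8574 and 10271 at 12 h (log2 change -0.35 ± 0.10, adjusted p = 0.0624). Both pairs of groups were free of overlap, as were 19.9% of all tested A array probe sets. The 31 mitosis genes had a median log2 change of -0.08. Of 24 ribosome biogenesis genes 23 had a positive change, with a median log2 change of 0.36, and none passed in its brightest probe set, the nearest being Gnl3, nucleostemin (log2 change 0.50 ± 0.13, adjusted p = 0.0509), and Rrs1 (log2 change 0.54 ± 0.15, adjusted p = 0.0602). None of 15 Notch, 11 insulin-like growth factor, 26 proteasome, 4 interferon-induced or 14 neuronal cytoskeleton genes passed in the brightest probe set. Through a dimmer probe set Nop56 and Mybbp1a, of ribosome biogenesis, rose, and Dnajb1, Timp2 and Stmn2, a co-chaperone, a protease inhibitor and a tubulin-binding protein of other lists, fell. Hey1, a Notch target, had 27.4, 29.5 and 23.2 at 48 h and 85.6, 177.5 and 38.3 at 12 h (log2 change -1.26 ± 0.41, adjusted p = 0.122), and Tubb3 had 248, 278 and 305 at 48 h and 165, 175.5 and 182 at 12 h (log2 change 0.62 ± 0.16, adjusted p = 0.0526).

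**Figure D5:**
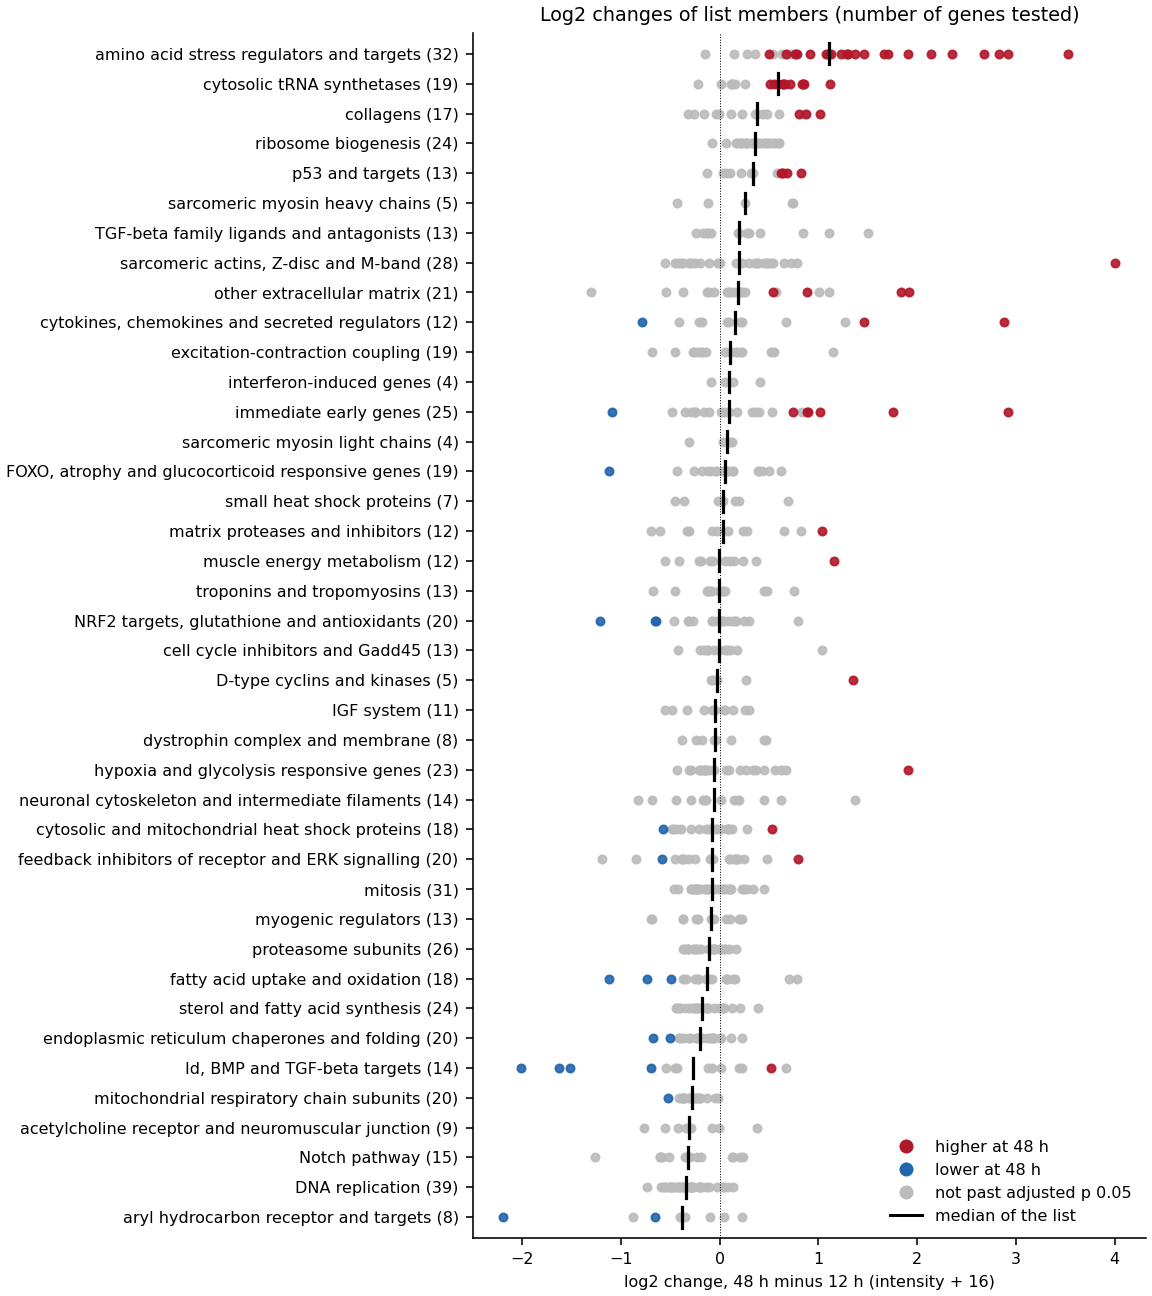
Log2 change at 48 h minus 12 h (x) of every tested member of 40 gene lists (y, with the number tested), with red for genes higher at 48 h, blue for genes lower at 48 h, grey for genes that did not pass and a black bar at each list's median. The amino acid stress list and the tRNA synthetases have the highest medians, 1.11 and 0.59, and most of their points are red.

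The B arrays added 5 further rises and 3 falls by the naming rule. Aldh1l2, the mitochondrial enzyme that oxidises formyl folate, had 4079.8, 3412 and 6687 at 48 h and 1157.5, 955 and 1339 at 12 h (log2 change 1.98 ± 0.22, limma adjusted p = 0.000756). Mn1, a transcriptional coactivator, had 758, 734 and 792 at 48 h and 169, 222 and 218 at 12 h (log2 change 1.84 ± 0.30, limma adjusted p = 0.0193), with very even arrays at 48 h. Mamdc2, a matrix proteoglycan, had 821, 998 and 1243.5 at 48 h and 278, 247 and 253 at 12 h (log2 change 1.89 ± 0.33, limma adjusted p = 0.027). The transcript 5430416N02Rik had 3384, 2578 and 3219.5 at 48 h and 678, 744 and 1073 at 12 h (log2 change 1.88 ± 0.18, limma adjusted p = 0.000283), and Snhg12, which carries small nucleolar RNAs in its introns, had 5314, 3683 and 6611 at 48 h and 1801, 1555 and 1866 at 12 h (log2 change 1.53 ± 0.18, limma adjusted p = 0.0012). Among the falls, Dmp1, an acidic matrix protein of mineralised tissue, had 334, 264 and 152 at 48 h and 1381, 1736 and 2017 at 12 h (log2 change -2.75 ± 0.39, limma adjusted p = 0.00557), and both of its probe sets fell. Prkar1b, a regulatory subunit of protein kinase A, had 494, 428 and 686 at 48 h and 1516.5, 1929.6 and 1644 at 12 h (log2 change -1.65 ± 0.29, limma adjusted p = 0.0327), and 1 of its 3 other probe sets fell. Neuritin (Nrn1), a small membrane-anchored growth protein, had 2222.5, 2058 and 1400.0 at 48 h and 4469, 3924 and 5487 at 12 h (log2 change -1.30 ± 0.22, limma adjusted p = 0.027). Aldh1l2, 5430416N02Rik, Snhg12 and Dmp1 kept their calls under every alternative and without any 1 array, while Mn1, Mamdc2, Prkar1b and Nrn1 each lost theirs whichever 1 array of 12 h or of 48 h was left out. In all of these the 48 h and 12 h arrays did not overlap, as the naming rule required, and neither did 13% of all B array probe sets tested.

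The 24 h arrays show where a gene stood between the times compared. Among the 12 largest rises on the A arrays the fitted log2 level at 24 h was nearer to that at 12 h in 10, and the median gene had made 32.7% of its change. The 24 h means were 332 for Trib3, 297 for Ddit3, 281 for Cth and 315 for Sesn2, and that of Car6, 52.3, was no higher than at 12 h. Htra1 and Msln were the 2 nearer to 48 h. Among the 12 largest falls 7 were nearer to 48 h, and the median gene had made 57.4% of its change. Their 24 h means included 1235 for Id3, 550.0 for Id2, 77.4 for Cyp1a1 and 299.9 for Cxcr4, while Atoh8, Hip1r, Islr, Ndufa7 and Egr2 were nearer to 12 h. For Ankrd23 the mean at 24 h was 729, but no array lay near it, with 1021, 1013.5 and 152 on the B type. These are descriptions, and no test between the courses was made.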

How the data were processed

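Affymetrix A and B arrays measured the total RNA of cultured mouse extraocular muscle. The deposited files hold 1 linear intensity per probe set, from a standard Affymetrix protocol per the labels, with software, summary method and genome build not given in the sources used here. Means trimmed of the outer 2% at each end were 499.9 to 500.0 on all arrays, so the authors had scaled each array, and changes are relative to it. Probe sets were named from the platform annotation, with symbols updated through Entrez identifiers to the RefSeq table of GRCm38.p6, and none with several symbols was named.

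The log2 of intensity plus 16 was fitted with limma 3.58.1 in R 4.3.3 (lmFit with 1 mean per time over all 15 arrays of a type, contrast 48 h minus 12 h, eBayes with an intensity trend). Types were fitted apart. Control probe sets, 64 per type, and those with a mean below the 40th percentile (intensity 101 on A, 199.6 on B) were left out. Benjamini-Hochberg adjustment ran over all probe sets tested of a type, with a threshold of 0.05. Residual degrees of freedom were 10, and prior ones 6.97 and 5.56. The filter took the mean over all 15 arrays, so a probe set dim at 1 time could pass it through the others. Changes of dim probe sets are understated. The number of arrays limits the precision, and detection calls were not analysed here. The fit was tested on simulated data.

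A gene is given by its brightest tested probe set, on A where both types hold it. Genes named are the 12 largest rises and falls on A and the 6 largest of each on B among called probe sets without overlap, 1 per gene, and up to 4 called members per list (2 where none was called). Members named to complete a count, or as having not passed, and the promoters chosen for a match, were chosen after their values were seen. The members and the 40 lists, with 797 genes, of which 655 were tested, were chosen with earlier results of these data known, so no list has a p-value. Figures were drawn with matplotlib 3.10.9.

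Alternatives were quantile normalization, median scaling, pseudocounts of 1 and 64, no filter and one at the 60th percentile, no intensity trend, the replicate number as a block, only the times compared, no 0 h arrays, and runs that each left out 1 array.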

Additional observations from a re-analysis of the deposited data

How the results depend on the processing

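Of 72 called probe sets named by the rule, 39 kept their call under every alternative and without any 1 array, wherever they were tested. A run in which a probe set was not tested did not count as a loss. Among the 39, Atf3, Car6, Nnmt, Msln, Sct, Rgs4, Atoh8, Fbln5 and the dimmer named Ndrg1 probe set were tested in 24 of 25 runs. Another 4 (Bag3, Bbc3, Ndufb8 and Loxl1) lost their call in 14 or 17 of 25 such runs. None of the 72 changed direction. With only the times compared, 219 A array probe sets passed, 160 higher and 59 lower, and the alternative has fewer arrays to estimate the spread. The split of A array calls was 243 higher and 101 lower as reported, 227 and 137 after quantile normalization and 164 and 112 after median scaling, and no scaling moved the median of all tested probe sets by more than 0.043. Among immediate early genes 2 rose under median scaling, where the cause was not tested. Without 1 array the A count ran from 154 to 372, the B count from 7 to 20 and the count of called list genes, 76 as reported, from 51 to 79. The amino acid stress count ran from 20 to 23, the tRNA synthetase count from 8 to 12 and the immediate early count of rises from 2 to 7. The same-numbered arrays of 48 h and 12 h had deviations that correlated at -0.04, 0.16 and 0.21 on the A and -0.03, -0.03 and 0.01 on the B type. For arrays of different number the correlations ran from -0.26 to 0.12 on A and from -0.05 to 0.08 on B. These values do not settle whether the A arrays were paired by number. The labels do not call the numbers pairs, and the main fit did not take them as such. With the replicate block 342 A and 13 B probe sets and 72 list genes passed, with 21 amino acid stress genes, 11 tRNA synthetases and 5 immediate early genes higher. At 0 h 1 B array, replicate 1, has leg muscle as its source name, and without it 20 B probe sets passed. Signal over background was not analysed here, and a median standard error of 0.266 on the B type limits what its 3 arrays per time can show.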

Other observations

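Beyond the lists, several groups and genes were looked up after values had been seen, and are given as a description. Of 15 tested host transcripts of small nucleolar RNAs 5 rose and none fell, with a median log2 change of 0.46. Zfas1 had intensities of 15349, 11275 and 16841 at 48 h and 5783.5, 6373.5 and 6109 at 12 h on the B arrays (log2 change 1.23 ± 0.14, limma adjusted p = 0.000756), Snhg5 had 2314, 1875 and 3006 at 48 h and 1085, 713 and 978 at 12 h on the A arrays (log2 change 1.35 ± 0.19, limma adjusted p = 0.000595), and Gas5 rose by a log2 of 0.64 ± 0.11 (adjusted p = 0.00228). Snhg1 and Snhg12 made up the 5. The 48 h and 12 h arrays of Zfas1 and Snhg5 did not overlap.

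The next genes are known as targets of Atf4. They were picked after their values were seen and are not a full list. Bcat1, the cytosolic branched-chain aminotransferase, had 2168, 2252 and 2406 at 48 h and 655, 779.6 and 1087 at 12 h (log2 change 1.45 ± 0.18, limma adjusted p = 0.000273) on the A arrays. Its B array probe set did not pass (log2 change 0.17 ± 0.17, adjusted p = 0.933). Pck2, the mitochondrial PEP carboxykinase, had 1479, 1409.8 and 1533 at 48 h and 559, 748 and 781 at 12 h (log2 change 1.08 ± 0.17, limma adjusted p = 0.00149). The translation repressor Eif4ebp1 rose by a log2 of 0.68 ± 0.13 (adjusted p = 0.00618). Its 2 other probe sets did not pass (log2 changes 0.53 and 0.75). Xpot, which exports tRNA from the nucleus, did not pass on the A arrays (log2 change 0.55 ± 0.19, adjusted p = 0.154) and passed in 1 of 3 B array probe sets (log2 change 0.71 ± 0.11, adjusted p = 0.0117). Gtpbp2, a GTPase of ribosome rescue, did not pass in its brightest probe set (log2 change 0.68 ± 0.20, adjusted p = 0.0835) and rose in 1 of the 3 others (log2 change 0.80 ± 0.19, adjusted p = 0.0326). Of 28 tested carriers of the Slc1, Slc3, Slc7, Slc36, Slc38 and Slc43 families, which hold many of the amino acid carriers, 4 rose, Slc1a4, Slc1a5, Slc7a5 and Slc3a2, and none fell. Slc1a4, a carrier of neutral amino acids, had 764, 769.7 and 1000.1 at 48 h and 284, 358 and 401 at 12 h (log2 change 1.24 ± 0.15, limma adjusted p = 0.000269), and all 3 of its tested probe sets rose. Ero1a, the oxidase that drives disulfide formation and a Ddit3 target, had 968, 705 and 1251 at 48 h and 329, 372 and 443 at 12 h (log2 change 1.29 ± 0.17, limma adjusted p = 0.000453).

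Among falls outside the lists, Peg3, an imprinted zinc finger gene expressed in muscle stem cells, had 3881, 3685.5 and 3317 at 48 h and 6877, 6799 and 6185 at 12 h (log2 change -0.87 ± 0.16, limma adjusted p = 0.0056), and all 3 of its tested probe sets fell. Tmem176b, a membrane protein, had 887.5, 1160.4 and 622 at 48 h and 2074, 1848 and 2473 at 12 h (log2 change -1.28 ± 0.21, limma adjusted p = 0.002), and its neighbour Tmem176a fell in 1 of 3 probe sets (log2 change -0.99 ± 0.20, adjusted p = 0.0121). The guidance receptors Robo1 and Plxnd1 fell, with log2 changes of -1.17 ± 0.18 (adjusted p = 0.00138) and -1.10 ± 0.28 (adjusted p = 0.0438). On the B arrays 2 Robo1 probe sets did not pass (log2 changes -0.01 and -0.81). Snai2, a transcription factor of mesenchymal cells, rose, with 502.5, 527 and 684 at 48 h and 232, 105 and 175 at 12 h (log2 change 1.70 ± 0.26, limma adjusted p = 0.00128). Its B array probe set did not pass (log2 change 1.92 ± 0.47, adjusted p = 0.211).

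Of 27 tested Utp, Nop and Rrp ribosome assembly factors 23 had a positive change and 3 rose, Utp4, Nop14 and Utp20, with a median log2 change of 0.28. Of 32 tested complex I subunits 3 had a positive change and 1 fell, with a median log2 change of -0.18.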
